A study of Mus musculus with 27 samples.

Results

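Hepatic stellate cells (HSCs) that had recovered for 14 d from a chronic course of carbon tetrachloride (CCl4) were compared with HSCs taken 7 d after a single CCl4 injection. The 2 groups were chosen by their labels, and hold 8 of the 27 RNA-seq libraries of the series, 4 in each group. All mice were male Balb/c. The acute 7 d mice received 1 injection at 10 to 12 weeks of age. The chronic 14 d mice started at 8 to 10 weeks of age and were injected semi-weekly for 4 weeks. They were left for 14 d after the course. Both groups were given 0.5 µL of CCl4 per gram body weight intraperitoneally, in mineral oil. HSCs were sorted from perfused livers by their ultraviolet fluorescence, which comes from stored vitamin A, and their RNA was taken without culture. Non-injected mice of 10 to 12 weeks gave the healthy libraries, whose levels are set beside those of both groups. The number of injections, the recovery time and the age of the mice differ together between the groups, so the data do not tell them apart. The labels do not say that each library came from its own mouse, so every p-value below measures the spread between libraries.

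CCl4 is converted in hepatocytes to a radical that kills the cells around the central vein, and the liver regrows once injections stop. HSCs answer the damage by leaving their quiescent, vitamin A-storing state. They divide, take on a contractile myofibroblast form marked by smooth muscle actin, and deposit fibrillar collagen together with the enzymes that fold and crosslink it. After the injury ends the scar is broken down, in large part by macrophages, and HSCs either die or return to a state that lies close to quiescence. The comparison sets the last time sampled after a single wound beside the last time sampled after repeated wounding.

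The files hold whole-number gene counts. Totals were 11646616 to 13052838 counts per library in acute 7 d and 6314801 to 7437315 in chronic 14 d, so sequencing depth splits the 2 groups without overlap and cannot be told apart from them. Chronic 24 h and chronic 72 h libraries, which are otherwise not used for a comparison here, came at both depths. They allow a fit with depth class (lower or higher total) as a term, and the loss of a call under it is stated below. The healthy libraries, at 10792560 to 12596066 counts, were all of higher depth, so depth splits them from chronic 14 d as well. All comparisons of chronic 14 d with healthy below carry this limit, whether or not they passed. Their log2 fold changes come from the fit without depth class. Levels are CPM, gene counts scaled to one common library total, after correction by the trimmed mean of M-values (TMM), with replicates 1 to 4 in order. Differences are log2 fold changes ± SE of chronic 14 d over acute 7 d from edgeR's quasi-likelihood test, fitted over all 27 libraries and adjusted over all genes tested, so a negative value is lower in chronic 14 d. A gene is called where the adjusted p is below 0.05 and the fold exceeds 2.

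Of 18758 genes tested, 551 were called. In chronic 14 d 115 genes were higher, 0.613% of those tested, and 436 were lower, 2.32% of those tested. Over all genes tested the median difference was -0.001 on the log2 scale. Of the 436 genes lower in chronic 14 d, 18 had no read in any chronic 14 d library, and 4 of the 115 higher genes had none in any acute 7 d library. With depth class as a term 56 genes were higher and 297 lower, and 17 of the 115 and 175 of the 436 kept their call. Under that term none of the 551 genes changed sign. When the test itself demanded a difference above 2-fold (edgeR's glmTreat), 0 genes were higher and 40 lower, with 236 higher and 558 lower at an unadjusted p below 0.05, while DESeq2 called 228 higher and 548 lower.

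**Figure D1:**
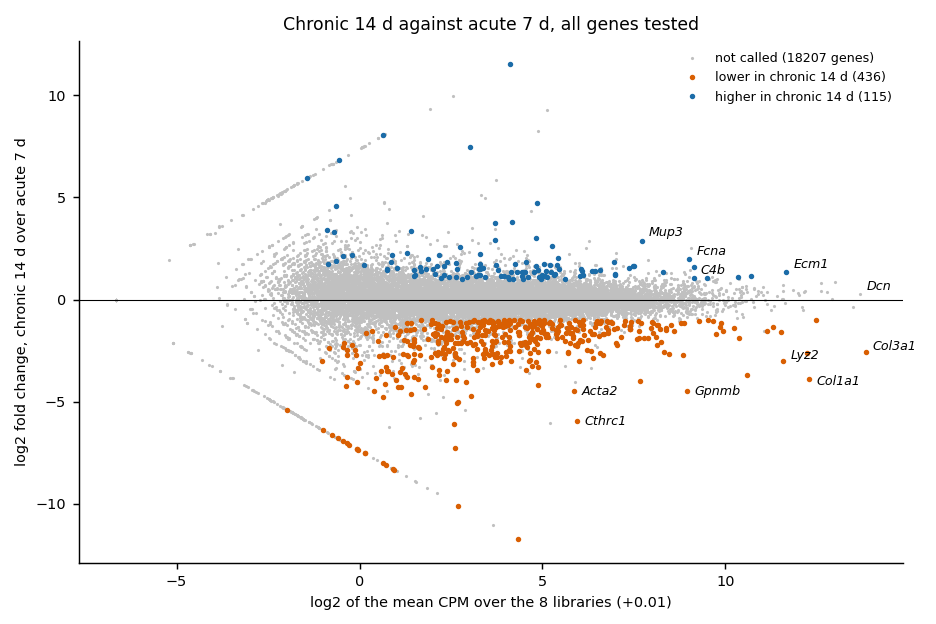
Each point is 1 of the 18758 genes tested, with the log2 of its mean CPM over the 8 libraries on the x axis and its log2 fold change, chronic 14 d over acute 7 d, on the y axis. Orange points are the 436 genes lower and blue points the 115 genes higher in chronic 14 d; the straight diagonal rows are genes with no read in 1 of the groups, whose fitted fold depends on the prior count.

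The sorted cells carried HSC markers in both groups. Lrat, the enzyme that esterifies vitamin A for storage, stood at 1369, 1801, 683 and 1409.7 CPM in acute 7 d and 664, 899.5, 1578 and 1270.0 CPM in chronic 14 d, and the groups overlapped (log2 fold change -0.25 ± 0.31, adjusted p = 0.715). Reln, a secreted glycoprotein typical of HSCs in liver, was at 1227 ± 105 CPM (SD, n = 4) in acute 7 d and 1764 ± 396 CPM in chronic 14 d, a difference of 0.52 ± 0.21 that did not pass (adjusted p = 0.165). Pdgfrb, the receptor through which platelet-derived growth factor drives HSCs, differed by 0.10 ± 0.23 (adjusted p = 0.861), and Fasn, the fatty acid synthase, by 0.03 ± 0.28 (adjusted p = 0.965).

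Fibrillar collagen mRNA was lower in chronic 14 d. Of 13 fibrillar and associated collagen genes, all tested, 10 were lower in chronic 14 d and 0 higher, with a median log2 fold change of -1.69. Their summed level was 52998, 56499.9, 54929 and 34006 CPM in the 4 acute 7 d libraries and 9559, 7728, 11067 and 9225 CPM in the 4 chronic 14 d libraries, against 5850.2 to 7863 CPM in healthy. Every acute 7 d library thus lay above every chronic 14 d library, and acute 7 d replicate 4 was the lowest of its group. Pan-macrophage mRNA, described below, had the same direction, with summed levels of 5245 to 13479 CPM in acute 7 d and 1207 to 2445 CPM in chronic 14 d, and its part in the matrix differences was not tested.

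Col1a1, which encodes the alpha 1 chain of type I collagen (GRCm38, chromosome 11, 94936224 to 94953042, plus strand), was at 10022, 10938, 11979 and 4450.3 CPM in acute 7 d and 724, 490.3, 889.6 and 387 CPM in chronic 14 d. The groups did not overlap, and the level was 15.0-fold lower in chronic 14 d (log2 fold change -3.91 ± 0.38, adjusted p = 3.28e-06). Col1a2, its partner chain (chromosome 6, 4504814 to 4541544, plus strand), stood at 9007, 9577, 9460.2 and 4971 CPM against 1351, 1157, 1544 and 1239 CPM, with no overlap and a log2 fold change of -2.64 ± 0.27 (adjusted p = 3.28e-06). Col3a1, which forms the thinner type III fibrils (chromosome 1, 45311538 to 45349706, plus strand), was at 26643, 27757, 26018 and 19187 CPM against 4194, 3432, 4940.1 and 4379.9 CPM, again without overlap (-2.55 ± 0.26, adjusted p = 3.28e-06). Type I collagen, built from the first 2 chains, makes up the bulk of scar fibres. Healthy libraries held 230.1 ± 74.7 CPM of Col1a1, and chronic 14 d remained 1.44 above them on the log2 scale (adjusted p = 0.00962), whereas the distance of Col3a1 from healthy, 0.68, did not pass (adjusted p = 0.0897).

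Among the minor fibrillar chains Col5a1 and Col5a2, which start type I fibrils and were named after their values were seen, had log2 fold changes of -1.70 ± 0.19 and -2.22 ± 0.23 (adjusted p = 8.8e-06 and 5.55e-06). Col6a3, a chain of the microfibrils around the fibres, had a log2 fold change of -1.38 ± 0.29 (adjusted p = 0.0066), while its partner Col6a1 was under 2-fold (-0.93 ± 0.15, adjusted p = 0.000762). Col11a1 was read at 8.64, 16.3, 16.0 and 7.35 CPM in acute 7 d and 0, 0, 0.240 and 0 CPM in chronic 14 d. With depth class as a term 7 of the 10 genes kept their calls, among them the 3 main chains, Col5a1 and Col5a2, while Col6a3 did not (adjusted p = 0.203) and Col6a1 gained one (-1.06, adjusted p = 0.00796).

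Enzymes that make a collagen fibre were lower in part as well. Lox, lysyl oxidase, which starts the crosslinks (chromosome 18, 52516067 to 52529867, minus strand), was at 482, 445, 376 and 216 CPM in acute 7 d and 18.1, 19.4, 34.7 and 22.6 CPM in chronic 14 d, 16.0-fold lower with no overlap (log2 fold change -4.00 ± 0.47, adjusted p = 3.09e-05). Of 21 genes for collagen crosslinking and folding, 9 were lower and 0 higher, with a median of -0.96. They include Loxl2, another lysyl oxidase (-1.48 ± 0.39, adjusted p = 0.0268), whose groups overlapped by 1 library, Plod2, which hydroxylates lysines for stable crosslinks (-1.50 ± 0.25, adjusted p = 0.00102), and the prolyl hydroxylase P4ha2 (-1.67 ± 0.31, adjusted p = 0.00232). Serpinh1, the collagen chaperone HSP47, stood at 3822, 3000.2, 3169 and 2671 CPM against 1217, 946, 1106 and 1035 CPM without overlap, but its difference of -1.56 ± 0.47 did not pass (adjusted p = 0.0554). It was called by DESeq2, in the fit of the 2 groups alone and with the replicate block, and not with depth class as a term (adjusted p = 0.499). With depth class as a term 3 of the 21 genes were called, Lox among them (-2.73, adjusted p = 0.00329), and the values of Loxl2, Plod2 and P4ha2 no longer passed (adjusted p = 0.422, 0.168 and 0.288).

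**Figure D2:**
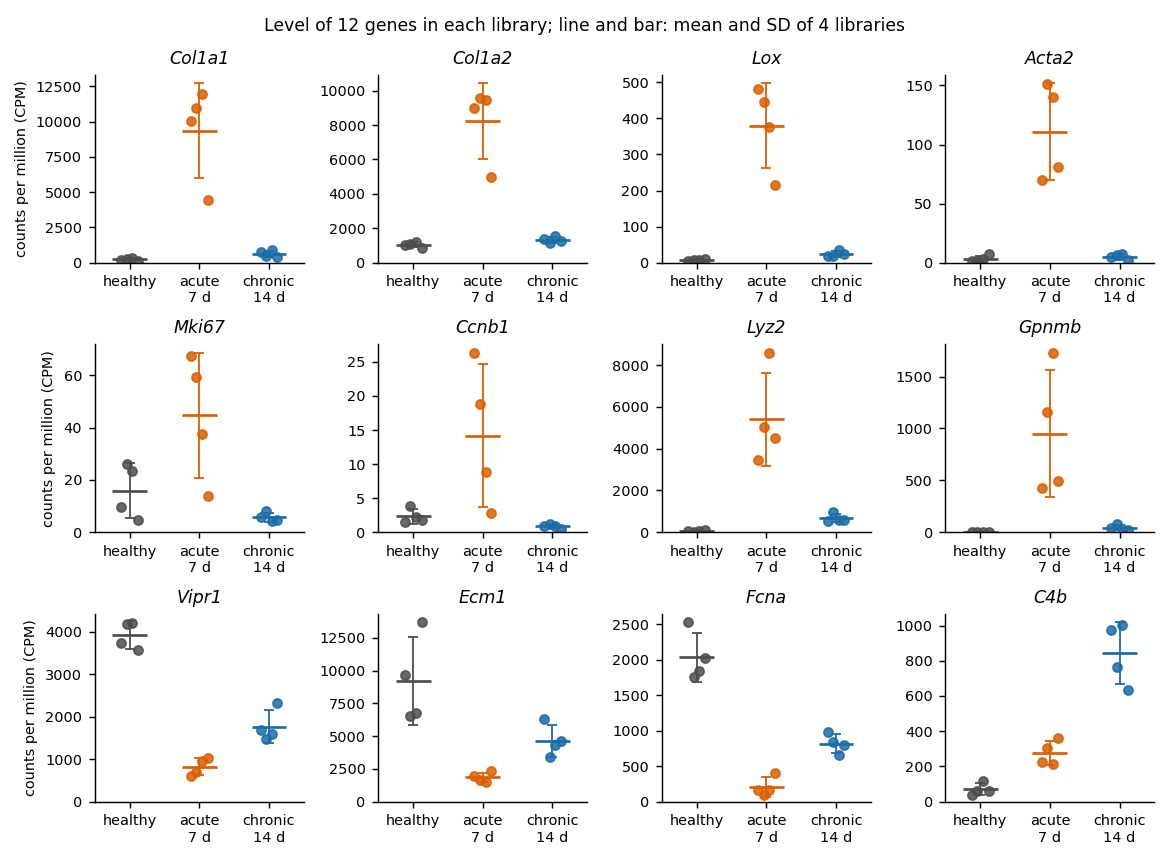
Levels in CPM of 12 genes in the 4 healthy (grey), 4 acute 7 d (orange) and 4 chronic 14 d (blue) libraries, with each panel on its own linear axis from 0; points are libraries, horizontal lines the means and bars the SD. The 8 genes of the upper 2 rows were lower in chronic 14 d, with no overlap between the 2 recovery groups, and the 4 genes of the bottom row were higher.

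Other matrix genes shared the direction in part. Of 31 tested glycoproteins and proteoglycans 12 were lower and 0 higher (median -0.69). Eln, elastin, was at 342, 279.7, 399.6 and 347 CPM in acute 7 d against 102, 97.2, 100.3 and 67.5 CPM (-1.90 ± 0.29, adjusted p = 0.000405). Mfap2, a microfibril protein, was at 91.6, 69.1, 143 and 101 CPM against 27.2, 20.5, 21 and 14.7 CPM (-2.28 ± 0.27, adjusted p = 3.09e-05), both without overlap. Vcan, the provisional-matrix proteoglycan versican, had a log2 fold change of -2.27 ± 0.36 (adjusted p = 0.000598) and Fbln2, an elastic-fibre fibulin, one of -2.11 ± 0.47 (adjusted p = 0.0106). Cthrc1, a secreted protein of collagen-producing fibroblasts (chromosome 15, 39076932 to 39087121, plus strand), had the lowest log2 fold change of the 12 lowest genes named by size of fold, from 175, 121, 132 and 56.4 CPM to 1.35, 2.5, 2.52 and 1.47 CPM, 61.1-fold (-5.93 ± 0.93, adjusted p = 0.000645). Dcn, decorin, a small proteoglycan that binds collagen, was not called, with 11879 ± 1679 CPM in acute 7 d and 14202 ± 2573 CPM in chronic 14 d (0.26 ± 0.26, adjusted p = 0.642). Thbs4, a matrix thrombospondin named here after its values were seen, was read at 45.8, 58.9, 41.2 and 14.6 CPM in acute 7 d and in no chronic 14 d library. By group mean it was at least 100-fold lower, against a floor of 3 counts per library. Under the depth term 4 of the 12 genes of the list kept their calls, and the calls of Fbln2 and Thbs4 ended (adjusted p = 0.258 and 1).

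Basement membrane genes gave 3 calls. The paired type IV chains Col4a1 and Col4a2, which share 1 divergent promoter, had log2 fold changes of -1.35 ± 0.24 and -1.01 ± 0.19 (adjusted p = 0.00206 and 0.00316), and Col15a1 one of -1.66 ± 0.35 (adjusted p = 0.00678). They were the 3 called genes of 17 tested, 17.6% beside 2.32% lower over all genes tested. The median of the list was -0.14, or 0.07 with depth class as a term. None of the 3 kept its call with depth class as a term (adjusted p = 0.187, 0.249 and 0.158), and Col4a2 lay at the 2-fold limit, below which it lay with the other scalings (log2 fold changes of -1.11 to -0.89 over the fits without 1 library).

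Of 29 matrix-degrading enzymes and inhibitors tested, 9 were lower in chronic 14 d and 0 higher (median -0.79, or -0.69 with the members at 0 in a group set to their bound). Mmp19 was at 57.8, 45.4, 31.4 and 20.4 CPM in acute 7 d and 7.96, 9.20, 10.1 and 6.02 CPM in chronic 14 d (-2.22 ± 0.29, adjusted p = 0.000104). Mmp12, the elastase of macrophages, was at 28.1, 80.9, 178 and 70.1 CPM against 12.5, 17.3, 16.0 and 14.2 CPM (-2.57 ± 0.67, adjusted p = 0.0265). The interstitial collagenase Mmp13 was at 2.99, 4.67, 14.2 and 18.2 CPM against 1.48, 2.37, 2.64 and 2.64 CPM (-2.13 ± 0.55, adjusted p = 0.0252). The lysosomal cathepsins Ctsb and Ctss had log2 fold changes of -1.52 ± 0.22 and -2.65 ± 0.50 (adjusted p = 0.000322 and 0.0026). Ctss and Mmp12 are also members of the macrophage lists below, so their calls are counted there as well. Timp1, the inhibitor that HSCs release during injury, was at 86.7, 53.9, 22.7 and 11.9 CPM against 8.63, 5.65, 6.97 and 0 CPM, with no read in chronic 14 d replicate 4, and its call (-3.03 ± 0.86, adjusted p = 0.0432) was lost in 7 of the 8 fits that left out 1 library. Mmp2, the gelatinase of HSCs, differed by less than 2-fold (-0.79 ± 0.23, adjusted p = 0.043), and neither Mmp14, its membrane-bound activator (-0.69 ± 0.23, adjusted p = 0.0871), nor Timp2 (-0.11 ± 0.17, adjusted p = 0.782) passed. Of the genes named, Mmp12, Mmp13 and Timp1 lost their calls with depth class as a term (adjusted p = 0.227, 0.0645 and 0.299).

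Acta2, which encodes smooth muscle actin, the classical marker of the myofibroblast form (chromosome 19, 34241090 to 34255590, minus strand), stood at 69.7, 151, 141 and 81.3 CPM in acute 7 d and 4.45, 6.31, 7.21 and 1.91 CPM in chronic 14 d. The chronic 14 d libraries all lay below the acute 7 d libraries, and the difference was 22.1-fold (-4.46 ± 0.80, adjusted p = 0.00204). Healthy libraries held 3.12 ± 2.69 CPM, and the distance of chronic 14 d from them, 0.67 on the log2 scale, did not pass (adjusted p = 0.659). Acta2 and the actin crosslinker Actn1 (adjusted p = 0.0196, at the 2-fold limit) were the 2 called genes of 24 tested, 8.33% beside 2.32% lower over all genes tested. The median of the contractile list was -0.37, or 0.05 with depth class as a term, and the abundant members Cnn3 and Tpm4 differed by 0.06 ± 0.40 and -0.43 ± 0.23 (adjusted p = 0.958 and 0.317). The calls of Acta2 (-2.66, adjusted p = 0.133) and Actn1 (adjusted p = 0.533) ended with depth class as a term. The highest group mean of Acta2, 1543 ± 1061 CPM, was that of chronic 24 h.

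Growth factor signalling gave 1 call, 3.03% of the genes tested in its list beside 2.32% lower over all genes tested. In the list of TGF-beta, activin and BMP signalling, Fstl1, a secreted BMP antagonist of activated stroma, was the 1 called gene of 33 tested, at 1706, 1474, 1516 and 1089.6 CPM against 483, 431, 550.2 and 536 CPM (-1.53 ± 0.20, adjusted p = 0.000104), and the difference was under 2-fold with depth class as a term (-0.91, adjusted p = 0.0251). Gdf2, the BMP9 ligand that HSCs supply to the liver, was at 1724 ± 320.4 CPM in acute 7 d and 2246 ± 179 CPM in chronic 14 d (0.38 ± 0.19, adjusted p = 0.272). None of 22 YAP and TAZ target genes, which respond to stiffness, was called by edgeR or DESeq2, with 3 higher and 3 lower at an unadjusted p below 0.05 and a median of 0.10. None of 22 genes of the unfolded protein response was called by either tool, with 1 higher and 3 lower at an unadjusted p below 0.05 and a median of -0.39.

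Genes of cell division were lower as a group. Of 46 cell cycle genes, all tested, 31 were lower in chronic 14 d and 0 higher, with a median of -2.23, or -2.17 with the members at 0 in a group set to their bound. The acute 7 d libraries differed among themselves, with a summed level of 1022, 888, 775 and 473 CPM, against 334, 311, 327 and 319 CPM in chronic 14 d and 394 to 486 CPM in healthy. Acute 7 d replicate 4 therefore came within the range of healthy, and still lay above all chronic 14 d libraries. Mki67, the proliferation marker Ki-67 (chromosome 7, 135689784 to 135716361, minus strand), was at 67.4, 59.5, 37.6 and 13.9 CPM in acute 7 d and 5.66, 8.15, 4.44 and 4.70 CPM in chronic 14 d (-2.96 ± 0.62, adjusted p = 0.00722). Ccnb1, the mitotic cyclin B1, was at 26.3, 18.8, 8.77 and 2.76 CPM against 0.944, 1.18, 0.841 and 0.440 CPM (-4.03 ± 0.75, adjusted p = 0.00244). Top2a, the topoisomerase that untangles sister chromatids, named after its values were seen, had a log2 fold change of -3.45 ± 0.58 (adjusted p = 0.0011). Among genes of DNA replication, Rrm1 stood at -0.93 ± 0.20 (adjusted p = 0.00728) and Mcm4 at -0.19 ± 0.16 (adjusted p = 0.577). Once depth class was a term 12 of the 46 genes were called and the median was -2.31. Mki67 kept its call (-4.58, adjusted p = 0.00189), and Ccnb1 did not (adjusted p = 0.0723).

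The promoters of the cell cycle list were searched for the letters of the elements that are known to time mitotic genes, the CCAAT box bound by NF-Y (CCAAT or, on the other strand, ATTGG) and the cell cycle homology region (TTTGAA or TTCAAA). The windows were the 250 bases before the first RefSeq start of each gene (GRCm38.p6), and 38 of the 46 genes had one. A CCAAT box was found in 31 of the 38 windows, 81.6%, against 34.5% of all 27025 windows, and a homology region in 11, 28.9%, against 16.3%. The windows of the genes lower in chronic 14 d held a CCAAT box in 21 of 26, 80.8%, and a homology region in 7, 26.9%. Both shares were near those of the whole list, so the letters do not set the lower genes apart from it. A window could count for both motifs, which may share a base, and a match is a description of the letters only. Stretches of 150 bases that end at the start site are shown for 3 genes that were lower in chronic 14 d, as the windows carry 3, 2 and 1 CCAAT boxes; capitals mark the letters of both motifs.
Ccnb2 (chr9:70421555-70421704, minus strand): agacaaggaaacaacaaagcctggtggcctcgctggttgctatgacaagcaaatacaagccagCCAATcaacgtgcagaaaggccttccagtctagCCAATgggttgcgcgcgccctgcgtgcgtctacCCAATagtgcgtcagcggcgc
Cdc20 (chr4:118437344-118437493, minus strand): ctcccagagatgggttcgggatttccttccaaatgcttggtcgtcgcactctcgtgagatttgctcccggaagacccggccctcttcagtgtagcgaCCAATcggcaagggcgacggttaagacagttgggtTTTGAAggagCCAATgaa
Plk1 (chr7:122159285-122159434, plus strand): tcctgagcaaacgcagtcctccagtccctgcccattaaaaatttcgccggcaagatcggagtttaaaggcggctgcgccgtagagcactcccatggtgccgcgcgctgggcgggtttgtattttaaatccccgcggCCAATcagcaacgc
Ccnb2, cyclin B2, was read at 30.4, 15.2, 14.6 and 3.60 CPM in acute 7 d and at 1.21, 0.920, 0.240 and 0 CPM in chronic 14 d (adjusted p = 0.00317). Cdc20, which activates the complex that ends mitosis and was named after its values were seen, was at 27, 14.6, 12.7 and 6.35 CPM against 2.02, 2.10, 1.56 and 1.61 CPM (-3.05 ± 0.59, adjusted p = 0.00365) and also holds a homology region, 18 bases before the start. Plk1, a mitotic kinase, was at 18.3, 16.0, 10.7 and 4.29 CPM against 0, 0.657, 0.721 and 0 CPM (adjusted p = 0.00592). In all 3 genes the acute 7 d libraries lay above the chronic 14 d libraries. Cdc20 kept its call with depth class as a term, and Ccnb2 and Plk1 lost theirs (adjusted p = 0.238 and 0.0674).

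Macrophage mRNA was lower in chronic 14 d. Of 20 pan-macrophage genes, all tested, 12 were lower in chronic 14 d and none was higher, with a median of -1.83, and no gene of the list was at 0 in all 8 libraries. Their summed level was 5245, 7951, 13479 and 8506 CPM in acute 7 d and 1595, 2445, 1491 and 1207 CPM in chronic 14 d, against 321 to 728 CPM in healthy. All chronic 14 d libraries were below all acute 7 d libraries and above all healthy libraries. Lyz2, lysozyme (chromosome 10, 117277331 to 117282321, minus strand), was at 3463, 5042, 8576 and 4518 CPM against 536, 988, 577 and 599 CPM (-3.00 ± 0.52, adjusted p = 0.00153). Reads of Lyz2 may be shared with its copy Lyz1. Adgre1, which encodes the F4/80 antigen, was at 20.4, 30.5, 42.7 and 46.4 CPM against 7.28, 7.10, 5.41 and 4.55 CPM (-2.52 ± 0.45, adjusted p = 0.00157). In sorted cells that are measured in bulk, fewer macrophages and less of each mRNA per macrophage cannot be told apart, and whether macrophages contributed to the differences of matrix and protease genes was not tested.

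Genes of recruited and lipid-associated macrophages had the same direction. Of 14 such genes 7 were lower and none was higher (median -2.14, or -2.02 with members at 0 in a group set to their bound). Gpnmb, a membrane glycoprotein of lipid-laden macrophages, which activated HSCs may also express, was at 422, 1160.0, 1727 and 494 CPM in acute 7 d and 37.9, 76.6, 32.8 and 22.9 CPM in chronic 14 d (-4.48 ± 0.83, adjusted p = 0.00258). Trem2, the lipid receptor of the same cells, was at 22.9, 31.1, 123 and 27.3 CPM against 3.64, 12.9, 1.8 and 6.02 CPM (-3.07 ± 0.69, adjusted p = 0.0108), and acute 7 d replicate 3, the highest, carried much of the mean and the call, which was lost without it, the mean being 27.1 instead of 51.0 CPM. Spp1, osteopontin, also a member of the bile duct list below, was at 3602, 4769.8, 2423 and 717 CPM against 165, 308, 199 and 224 CPM (-3.68 ± 0.45, adjusted p = 4.44e-05). Within acute 7 d Spp1 was lowest in replicate 4, where the pan-macrophage sum was 8506 CPM. That sum was lowest in replicate 1, at 5245 CPM. Which cells the Spp1 mRNA came from was not tested. Ccr2, the receptor that brings monocytes from blood, named after its values were seen, had a log2 fold change of -2.46 ± 0.43 (adjusted p = 0.00157). F13a1 and Atp6v0d2, a clotting factor subunit and a proton pump subunit of macrophages, had log2 fold changes of -3.44 ± 0.55 and -4.19 ± 0.92 (adjusted p = 0.00102 and 0.0131). Under the fit with depth class 4 of the 7 genes of the list kept their calls, and Atp6v0d2 lost its call (adjusted p = 0.0758).

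Further genes of myeloid cells named by the lists were lower. C3ar1, the receptor for the complement fragment C3a, was at 59.7, 124, 160.1 and 107 CPM in acute 7 d and 15.5, 15.4, 14.7 and 10.9 CPM in chronic 14 d (-3.00 ± 0.46, adjusted p = 0.0005). Fcgr3, an antibody receptor, was at 75.5, 144, 262 and 177 CPM against 29.0, 41.9, 19.7 and 15.1 CPM (-2.64 ± 0.48, adjusted p = 0.0023). Mpeg1, the pore-forming perforin-2, was at 271, 527, 664 and 493 CPM against 87.9, 131, 141 and 96.7 CPM (-2.10 ± 0.40, adjusted p = 0.00276). All 3 lay lower in every chronic 14 d library, and kept their calls with depth class as a term. Fcgr1, the high-affinity antibody receptor, was near the detection limit in chronic 14 d, at 0.809, 5.91, 2.88 and 0 CPM against 13.6, 19.5, 28.1 and 27.1 CPM (adjusted p = 0.0365), and its call was lost in 7 of the 8 fits without 1 library.

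Of 12 genes of resident Kupffer cells tested, Hmox1, which degrades haem, was called, and its call was lost in 5 of the 8 fits without 1 library (-1.14 ± 0.30, adjusted p = 0.0259). Hmox1 was 8.33% of the list, beside 2.32% lower over all genes tested. Clec4f, which is restricted to Kupffer cells, was at 120.2, 162, 406 and 786 CPM in acute 7 d and 129, 278, 86.6 and 31.6 CPM in chronic 14 d, with overlap (-1.49 ± 0.69, adjusted p = 0.248). No gene of MHC class II presentation was called by edgeR or DESeq2 among 12 tested, with 2 lower and 0 higher at an unadjusted p below 0.05. Their median was -0.72. Depth class moved with the pan-macrophage list at one of the 2 times that hold both classes. In chronic 24 h the 2 libraries of lower depth held 4112 and 5157 CPM of the pan-macrophage genes and the 2 of higher depth 949 and 1745 CPM. In chronic 72 h the 2 classes overlapped, at 2719.6 and 3648 CPM at lower and 1479 and 3009 CPM at higher depth. After depth class was added the differences grew, to 15 of 20 pan-macrophage and 6 of 12 class II genes lower, with medians of -2.94 and -2.70.

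**Figure D3:**
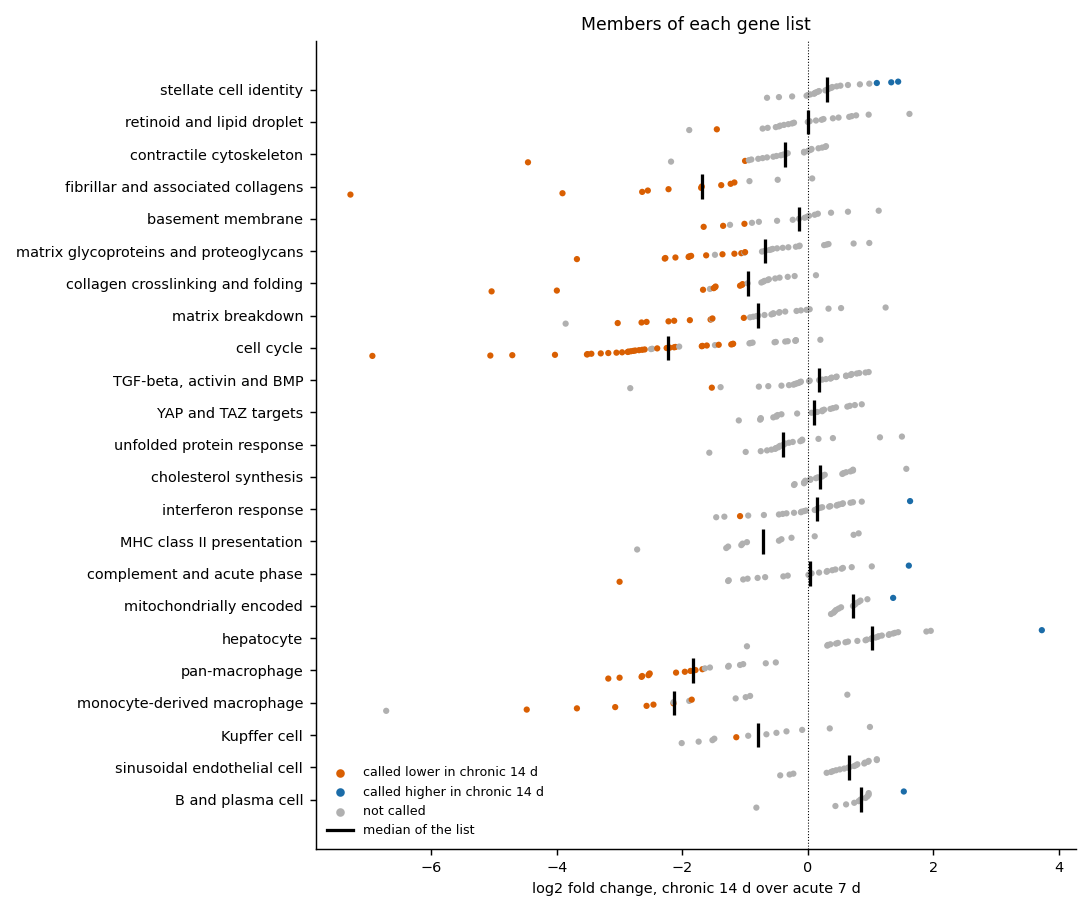
Each point is 1 member of a gene list, placed by its log2 fold change of chronic 14 d over acute 7 d, and black bars are the medians of the lists. Orange points were lower in chronic 14 d, as in the collagen, cell cycle and pan-macrophage lists (medians of -1.69, -2.23 and -1.83), blue points were higher, and grey points were not called.

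HSC identity genes had the opposite direction. Of 25 tested, 3 were higher in chronic 14 d, 12.0% beside 0.613% over all genes tested, and none was lower. A positive log2 fold change was found in 21 of 25 genes, and the median was 0.31. Their summed level was 14889.7, 15658, 16555 and 17744 CPM in acute 7 d and 24450.1, 19119, 22721 and 25599.8 CPM in chronic 14 d, without overlap, and both groups lay below the 36798 to 42956 CPM of healthy. Ecm1, a secreted protein that keeps latent TGF-beta inactive in liver (chromosome 3, 95734147 to 95739569, minus strand), was at 1959.8, 1681, 1466 and 2303 CPM in acute 7 d and 6326, 3389, 4312 and 4608 CPM in chronic 14 d (1.33 ± 0.31, adjusted p = 0.0142). Vipr1, the receptor for vasoactive intestinal peptide (chromosome 9, 121642716 to 121672954, plus strand), was at 612, 707, 962 and 1025 CPM against 1676, 1469, 1605 and 2322 CPM (1.10 ± 0.26, adjusted p = 0.0158). Ngfr, the p75 neurotrophin receptor, was at 24.6, 27.7, 79.6 and 70.9 CPM against 148, 104, 145 and 155 CPM (1.44 ± 0.40, adjusted p = 0.0382). For each of the 3 genes the chronic 14 d libraries lay above the acute 7 d libraries. Compared with healthy, chronic 14 d stood at -1.15 on the log2 scale for Vipr1 (adjusted p = 0.00676), while the distance of Ngfr, -0.73, did not pass (adjusted p = 0.278). Under the depth term no gene of the list was called and the median was 0.21, with Ecm1, Vipr1 and Ngfr not passing (adjusted p = 0.484, 0.271 and 0.412). Gfap and Ntm, further markers of the quiescent cell, differed by 0.35 ± 0.23 and 0.46 ± 0.25 (adjusted p = 0.43 and 0.333).

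Further genes outside that list were higher in chronic 14 d than in acute 7 d. Fcna, ficolin A, a lectin that starts complement (chromosome 2, 25624666 to 25628030, minus strand), was at 160.4, 96.7, 165 and 405 CPM in acute 7 d and 982, 837, 654 and 799 CPM in chronic 14 d, 3.96-fold higher (1.98 ± 0.34, adjusted p = 0.00134), and stood below the 2038 CPM of healthy (log2 fold change -1.32, adjusted p = 0.0148). Calcrl, Abi3bp, Pcsk6 and Il34 were picked after their values were seen. Calcrl, the receptor subunit for adrenomedullin, was higher by 1.08 ± 0.24 (adjusted p = 0.0095) with group means of 467 and 983 CPM beside 1352 CPM in healthy. Abi3bp, a matrix protein, was higher by 1.24 ± 0.25 (adjusted p = 0.00566), the proprotein convertase Pcsk6 by 1.49 ± 0.31 (adjusted p = 0.00578), and Il34, a ligand of the macrophage receptor CSF1R, by 1.40 ± 0.35 (adjusted p = 0.0217). Of these 5 genes Abi3bp was the one that kept its call with depth class as a term (1.65, adjusted p = 0.0125).

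Vitamin A genes showed 1 difference, 4.35% of the genes tested in their list beside 2.32% lower over all genes tested. Dhrs3, which reduces retinaldehyde to retinol, was lower in chronic 14 d, at 204, 371, 169 and 234 CPM in acute 7 d and 80.1, 114, 79.0 and 83.9 CPM (-1.45 ± 0.29, adjusted p = 0.00399), near the 83.8 ± 29.2 CPM of healthy. It was the 1 called gene of 23 tested in the retinoid and lipid droplet list, whose median was 0.00, and the call ended with depth class as a term (adjusted p = 0.114). By edgeR or DESeq2 no gene of lipogenesis (16 tested) or cholesterol synthesis (20 tested) was called, with 1 and 3 higher and 0 lower at an unadjusted p below 0.05. Their medians were 0.07 and 0.19, the second being 0.95 with depth class as a term.

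Some genes were higher in chronic 14 d than in both acute 7 d and healthy libraries. C4b, complement component 4 (chromosome 17, 34728380 to 34743882, minus strand), stood at 228, 302, 213 and 359 CPM in acute 7 d and 974, 762, 1002 and 633 CPM in chronic 14 d, without overlap (1.61 ± 0.30, adjusted p = 0.00245). Healthy libraries held 69.5 ± 34.4 CPM, and chronic 14 d lay 3.60 above them on the log2 scale (adjusted p = 4.17e-07), and the group means of chronic 24 h and chronic 72 h were 797 and 994 CPM. C4b kept its call against acute 7 d with depth class as a term (1.75, adjusted p = 0.0292). Its distance from healthy was not fitted with that term. Reads that C4b shares with its near-identical copy C4a may have been split between them. Ptgir, the prostacyclin receptor, was at 11.9, 13.6, 19.1 and 16.1 CPM against 51.4, 32.6, 58.7 and 60.0 CPM (1.74 ± 0.30, adjusted p = 0.00153), above the 8.64 ± 1.86 CPM of healthy (adjusted p = 1.85e-05), and it also kept its call (1.84, adjusted p = 0.0238). Pex5l, a relative of the peroxisomal import receptor, was higher by 1.70 ± 0.38 (adjusted p = 0.0099). Tspan18, a tetraspanin, was higher by 1.81 ± 0.33 (adjusted p = 0.00231). Under the depth term Pex5l kept its call and Tspan18 did not. Serpina3f, a serine protease inhibitor of the expanded mouse Serpina3 family, was at 4.12, 3.28, 6.52 and 11.3 CPM against 61.2, 46.8, 42.2 and 52.1 CPM (3.00 ± 0.55, adjusted p = 0.00232), and its call ended under the depth term (adjusted p = 0.117). The members of that family share reads, so the value of each is uncertain.

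Sox9, a transcription factor of bile duct cells that activated HSCs also make, was at 16.6, 17.6, 13.1 and 27.9 CPM in acute 7 d and 38.6, 51.8, 57.3 and 51.8 CPM in chronic 14 d (1.40 ± 0.37, adjusted p = 0.0281), beside 12.2 ± 6.41 CPM in healthy. Of 11 bile duct genes tested, Sox9 was higher and Spp1 lower, each 9.09% of the list beside 0.613% higher and 2.32% lower over all genes tested. Krt8 and Krt18, keratins of that list that are not restricted to bile duct cells, differed by -0.36 ± 0.59 and -0.20 ± 0.51 (adjusted p = 0.8 and 0.881). Cxcl10, an interferon-induced chemokine, was at 55.2, 21.6, 76.7 and 193 CPM against 305, 287, 269.7 and 211 CPM (1.63 ± 0.44, adjusted p = 0.03), and its call was lost in 7 of the 8 fits without 1 library. Irf1, an interferon-induced transcription factor named after its values were seen, was higher by 1.05 ± 0.26 (adjusted p = 0.0193). The interferon list as a whole gave 1 gene higher, Cxcl10, and 1 lower, Ifi27l2a (-1.08 ± 0.29, adjusted p = 0.0327), of 30 tested, with a median of 0.15. Each was 3.33% of the list, beside 0.613% higher and 2.32% lower over all genes tested. Sox9, Cxcl10, Irf1 and Ifi27l2a lost their calls with depth class as a term (adjusted p = 0.103, 0.378, 0.424 and 0.547), and the interferon median turned to -0.41.

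The remaining genes that stood out by size of fold have mixed roles. Slit3, a guidance protein that binds ROBO receptors, was at 65.6, 88.3, 25.5 and 9.95 CPM in acute 7 d and 2.97, 4.99, 8.17 and 3.23 CPM in chronic 14 d (-3.28 ± 0.53, adjusted p = 0.000717). Nnat, neuronatin, was at 68.8, 39.7, 62.6 and 41.0 CPM against 6.34, 6.57, 6.97 and 1.17 CPM (-3.32 ± 0.48, adjusted p = 0.00025). Both were lower and kept their calls with depth class as a term, and a lack of overlap was part of the rule that named them. In the other direction Taf4b, a subunit of the general transcription factor TFIID, was at 2.75, 4.34, 3.78 and 7.04 CPM against 15.0, 13, 18.4 and 13.5 CPM (1.74 ± 0.29, adjusted p = 0.00105) and kept its call (1.93, adjusted p = 0.015). Papln, the matrix protein papilin, had a log2 fold change of 1.69 ± 0.33 (adjusted p = 0.00348), Mms19, a factor of iron-sulfur protein assembly, of 1.73 ± 0.45 (adjusted p = 0.0246), and Cnppd1, a cyclin-related protein, of 2.04 ± 0.49 (adjusted p = 0.0174). The last 3 lost their calls with the depth term, and their healthy means of 40.5, 22.5 and 50.8 CPM lay between the means of acute 7 d (17.4, 8.74 and 16.8 CPM) and chronic 14 d (56.3, 29.0 and 69.2 CPM).

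Hepatocyte mRNA was present in every library and spread widely. The 25 hepatocyte genes summed to 8265, 5225, 4938 and 5867 CPM in acute 7 d and 10688, 24137, 6082 and 5264 CPM in chronic 14 d, so the groups overlapped and chronic 14 d replicate 2 was the highest. The median of the list was 1.02, or 0.32 with depth class as a term, and 24 of 25 genes had a positive log2 fold change. Mup20 was the 1 called gene (3.73 ± 1.01, adjusted p = 0.0337), 4.0% of the list beside 0.613% higher over all genes tested. The difference of Alb, albumin, did not pass (0.48 ± 0.77, adjusted p = 0.792). Without chronic 14 d replicate 2 the group mean of Alb was 520.1 instead of 916 CPM, and that of Mup3 227 instead of 368 CPM. The major urinary proteins Mup3 and Mup9 were among the 12 genes with the highest folds, at 2.89 ± 0.78 and 4.72 ± 1.33 (adjusted p = 0.0319 and 0.0458). They are hepatocyte products of a gene family with near-identical copies, so their values are uncertain, and both calls ended with depth class as a term (adjusted p = 0.18 and 0.198). Igkc, the immunoglobulin kappa constant region of B lineage cells, was higher by 1.53 ± 0.42 (adjusted p = 0.0348, or 0.729 with depth class as a term), and the 12 B and plasma cell genes summed to 151 to 345 CPM in acute 7 d and 321 to 595 CPM in chronic 14 d. Sinusoidal endothelial genes gave no call of 20 by edgeR or DESeq2, with 1 higher at an unadjusted p below 0.05 (median 0.66) and sums of 528 to 1515 and 992 to 1586 CPM. The part of hepatocytes, B lineage cells and endothelial cells in the genes that were higher in chronic 14 d was not tested.

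Other cell types gave few calls. Of 11 dendritic cell genes tested, Itgax, the integrin CD11c, was lower (-2.14 ± 0.58, adjusted p = 0.045, or 0.312 with depth class as a term), and the sums of the list overlapped, at 268 to 375 CPM in acute 7 d and 303 to 333 CPM in chronic 14 d. Of 17 mesothelial and portal fibroblast genes tested, 2 were lower, Eln and Fbln2, which are matrix genes as well. The lower genes were 9.09% of the dendritic cell list and 11.8% of the mesothelial and portal fibroblast list, beside 2.32% over all genes tested. Neutrophil (9 tested), T and NK cell (15 tested) and red blood cell genes (7 tested) gave no call by edgeR, with 1, 1 and 0 higher and 2, 0 and 0 lower at an unadjusted p below 0.05, while DESeq2 called 1 neutrophil gene higher. The sums of the T and NK cell genes were 38.1 to 53.1 CPM in acute 7 d and 46.2 to 71.2 CPM in chronic 14 d. Of 23 chemokine genes tested Cxcl10 alone was called by edgeR, and of 22 complement and acute phase genes C4b was higher and C3ar1 lower, with medians of 0.02 and 0.04. Cxcl10 was 4.35% of its list, and C4b and C3ar1 were 4.55% each of theirs. Over all genes tested 0.613% were higher and 2.32% lower.

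Mitochondrially encoded mRNA took 0.464 to 0.744% of counts in acute 7 d and 0.759 to 1.13% in chronic 14 d. All 13 genes had a positive log2 fold change, with a median of 0.72, and mt-Nd2, a subunit of respiratory complex I, was called, at 218, 142, 142 and 201 CPM in acute 7 d and 329.8, 559.8, 478 and 431 CPM in chronic 14 d (1.36 ± 0.25, adjusted p = 0.00218). That call was 7.69% of the list, beside 0.613% higher over all genes tested. The more abundant mt-Co1 and mt-Cytb differed by 0.53 ± 0.22 and 0.49 ± 0.21 (adjusted p = 0.179 and 0.188). No immediate early or heat shock gene of 24 was called by edgeR or DESeq2, 4 being higher and 0 lower at an unadjusted p below 0.05, and their median was 0.25.

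Of 12 clock genes with the phase of the output factors and 6 of the opposite phase, 1 and 2 were lower. These were 8.33% and 33.3% of the lists, beside 2.32% lower over all genes tested. Per2, a repressor of the clock, was at 56.5, 71.6, 4.91 and 16.2 CPM in acute 7 d and 3.10, 7.75, 10.8 and 13.5 CPM in chronic 14 d, where the groups overlapped and replicates 3 and 4 of acute 7 d lay low (-2.08 ± 0.59, adjusted p = 0.0406). Nfil3, which opposes the clock output factor DBP, was at 51.6, 52.0, 133 and 124 CPM against 22.0, 33.8, 22.8 and 18.6 CPM (-1.89 ± 0.38, adjusted p = 0.00469). Cry1 had a log2 fold change of -1.14 ± 0.33 (adjusted p = 0.0475). Dbp itself differed by 0.17 ± 0.68 (adjusted p = 0.926). Nr1d1, the haem receptor REV-ERB alpha, was at 107, 96.2, 182 and 158 CPM against 423, 277, 368 and 290.0 CPM (1.32 ± 0.39, adjusted p = 0.0537). Nr1d1 was called by DESeq2, with depth class as a term (2.56, adjusted p = 0.00227), and in 6 other fits. Per2 and Cry1 lost their calls with the depth term (adjusted p = 0.494 and 0.142). The time of day of sampling is not in the labels.

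The recovery groups were also read over 2 published HSC programs, which the study built wholly or in part from libraries of this series, so that their direction is not independent evidence. The initiatory program holds genes raised both in acute 24 h over healthy and early in cultured HSCs, and used neither recovery group. Of the 173 genes of the fibrogenic program, chosen by the study as raised at peak fibrosis over healthy and recovered cells, the latter including the chronic 14 d libraries, 172 were tested. Among them 61 were lower in chronic 14 d than in acute 7 d and 0 higher, with a median of -1.08, or -1.0 with members at 0 in a group set to their bound. The summed level was 34749, 36581, 38345 and 22056 CPM in acute 7 d and 8939, 9087, 9871 and 8150.3 CPM in chronic 14 d, beside 6812 to 8270.0 CPM in healthy. Once depth class was a term 19 of the 172 genes were called. Inava, an innate immunity adaptor of this program, was read at 5.33, 4.18, 4.26 and 1.61 CPM in acute 7 d and in no chronic 14 d library, at least 9.61-fold lower by group mean. Of the 72 genes of the initiatory program, set up early in activation, 13 were lower and 0 higher (median -0.70). Under the fit with depth class 4 of the 13 kept their calls and the median was -0.41. Ch25h, which makes a hydroxylated cholesterol, was among the genes that were lower, at 82.1, 71.4, 135 and 69.1 CPM in acute 7 d against 11.9, 20.4, 13.6 and 12.2 CPM (-2.62 ± 0.37, adjusted p = 0.000235). Has2, which makes hyaluronan, was read at 1.94, 1.88, 2.41 and 0 CPM in acute 7 d and in no chronic 14 d library, at least 3.90-fold lower by group mean. The groups thus overlapped at 0, and the call ended with the depth term (adjusted p = 0.29).

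**Figure D4:**
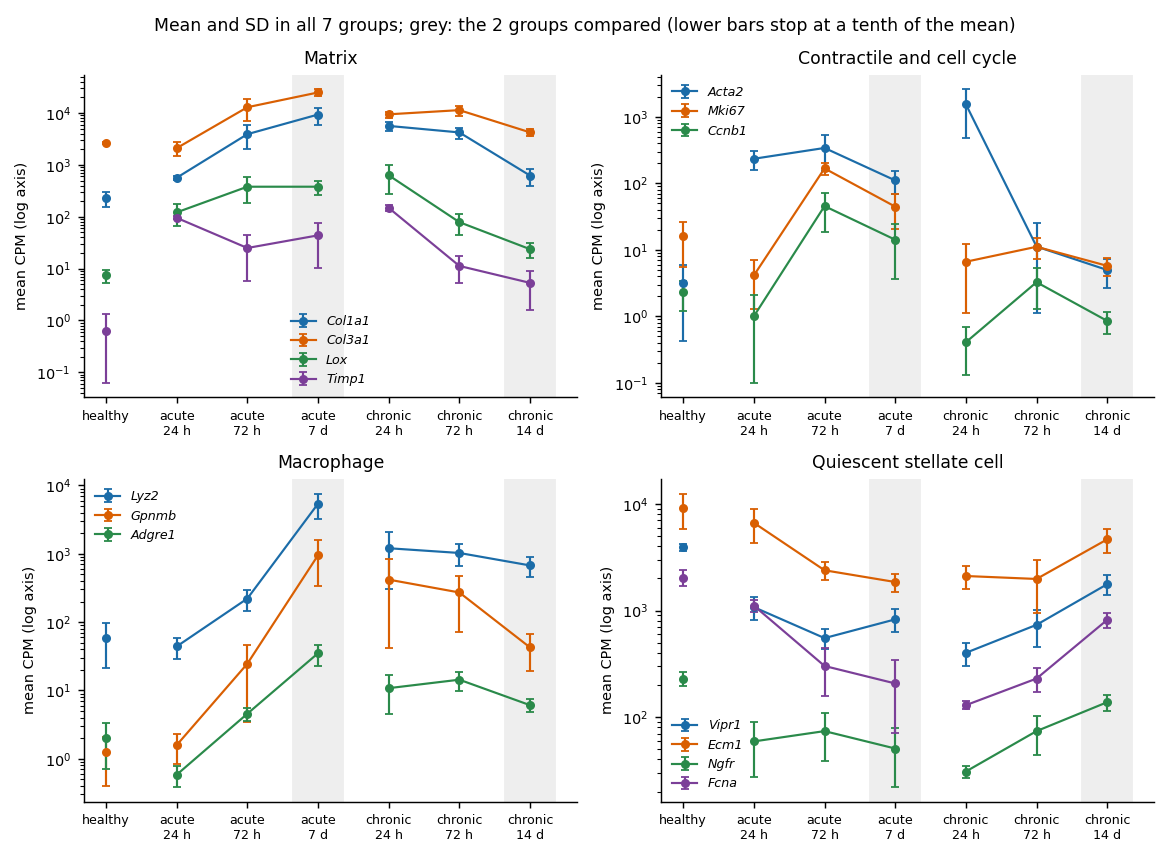
Mean CPM on a log axis of 14 genes in all 7 groups, with bars of 1 SD (n = 4, and 3 for acute 24 h; lower bars are shortened where the SD comes near or exceeds the mean); grey bands mark acute 7 d and chronic 14 d. Col1a1, Col3a1 and Lyz2 had their highest mean in acute 7 d, Acta2 and Lox in chronic 24 h, Mki67 and Ccnb1 in acute 72 h, and Vipr1, Ecm1, Ngfr and Fcna in healthy.

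Set among all 7 groups, the genes reached their highest levels at different times. Col3a1 went over the acute course from 2101 CPM at 24 h to 12928 CPM at 72 h and 24901 CPM at 7 d in group means, and over the chronic course went from 9439 and 11368 CPM to 4237 CPM at 14 d. Mki67 had its highest mean, 168 ± 32.6 CPM, at 72 h after 1 injection, and 11.1 CPM at 72 h after the chronic course. Lyz2 stood at 221 CPM in acute 72 h, 5400.0 CPM in acute 7 d and 1027 CPM in chronic 72 h. Fcna was at 302 CPM in acute 72 h, 207 CPM in acute 7 d and 230.0 CPM in chronic 72 h. These means are given as levels, and no test of a course over time was made.

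**Figure D5:**
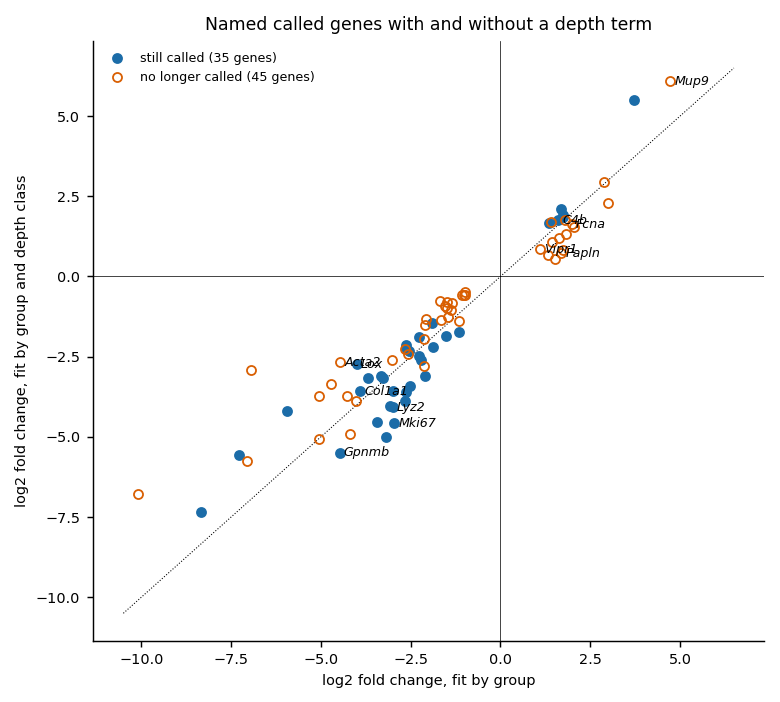
Log2 fold changes of chronic 14 d over acute 7 d for the 80 named genes that were called, from the fit by group (x axis) and from the fit with depth class as a further term (y axis), with the dotted line at equal values. Filled points are the 35 genes that were still called and open points the 45 that were not; all lie on the same side of 0 in both fits.

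Of the 80 named genes that were called, 35 kept their call with depth class as a term, among them Col1a1 (-3.57, adjusted p = 0.000573), Col1a2 (-2.14, adjusted p = 0.00124) and Col3a1 (-2.33, adjusted p = 0.00116). Lyz2 and Gpnmb moved further from 0, to -4.08 and -5.49 (adjusted p = 0.00186 and 0.0153). Since all 8 libraries of the 2 groups compared are split by depth, the term rests wholly on the chronic 24 h and chronic 72 h libraries.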

How the data were processed

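RNA-seq of sorted hepatic stellate cells was read from 1 table of gene counts. Per the submitters' processing notes, STAR and StringTie were used with GRCm38, and the counting step and strand setting are not given in the sources used here. The deposited counts are whole numbers for 53379 Ensembl genes in 27 libraries, and 53274 IDs had a symbol in GENCODE M21. Genes with low counts were removed with filterByExpr by group (18758 kept), libraries were scaled by TMM, and groups were compared with the quasi-likelihood test of edgeR 4.0.16 (R 4.3.3, robust, a mean for each of 7 groups over all 27 libraries) with Benjamini-Hochberg adjustment over all genes tested. DESeq2 1.42.0 and the other alternatives in the closing section were run beside it. In data simulated from these libraries for this comparison, 114 of 200 genes changed by 1.5 (log2) and 131 of 200 changed by 2 were recovered, with 5 and 3 false calls. The simulated counts kept the library totals but held no effect of depth class or batch on expression. The false calls therefore do not cover calls that such an effect could give. Named are anchor genes, up to 6 genes of each list, and the 12 highest and 12 lowest called genes among those whose log2 CPM averaged at least 3 and whose groups did not overlap, of which some are not reported here. Other genes are said in the text to have been named after their values were seen. Groups, gene lists and named genes were chosen with earlier results of these data known. Promoter sequences are from RefSeq tables (GRCm38.p6). Coordinates are from GENCODE M21.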

Additional observations from a re-analysis of the deposited data

Results flagged for a closer look

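In 94 pairs of gene and group (47 genes in 2 groups of 4 libraries), 5 libraries lay far from the other 3 of their group by Dixon's criterion on log2 CPM, and chance gives about 1 in 20. In chronic 14 d replicate 4 these were Timp1, at 0 CPM, Nnat, at 1.17 CPM, and Mmp2, at 400.5 CPM, each below the other 3 libraries of the group. Pdgfrb was low in chronic 14 d replicate 2, at 822 CPM. Col1a2 was low in acute 7 d replicate 4, at 4971 CPM, which still lay above every chronic 14 d library.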

How the results depend on the processing

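The count of genes higher in chronic 14 d (115) was 228 with DESeq2, 73 without a filter on low counts, 56 with depth class as a term, 0 with the test against a 2-fold minimum, 205 at an adjusted p of 0.1 and 201 with no fold minimum. The count of lower genes (436) was 40 with the test against a 2-fold minimum and 706 with no fold minimum, and stayed within 1.5 times under the other settings that kept all libraries. Leaving out 1 library at a time gave 59 to 135 higher and 205 to 473 lower genes. The higher count fell to 67 without chronic 14 d replicate 4 and to 59, 73 and 76 without acute 7 d replicates 1, 2 and 3. The lower count fell to 284 and 205 without chronic 14 d replicates 3 and 4 and to 288 without acute 7 d replicate 1. These fits test fewer libraries, and no called gene changed sign in any setting. Replicate numbers were not used to pair the libraries. Between the 2 groups compared, correlations of same-numbered libraries were -0.129 to -0.015, and with a replicate block 123 genes were higher and 426 lower. These correlations cannot show a batch shared by several replicate numbers. In chronic 24 h and chronic 72 h, replicates 1 and 2 were of lower and replicates 3 and 4 of higher depth. Depth limits the lower-count genes of chronic 14 d, whose libraries hold as few as 6314801 counts, and thinning all libraries to that total gave 115 higher and 390 lower genes. Of the 80 named genes that were called, 49 were called in every fit without 1 library, among them Col1a1, Col1a2, Col3a1, Lox, Cthrc1, Acta2, Spp1, Gpnmb, Lyz2, Mki67, C4b, Ptgir and Fcna. Calls were lost in 1 to 4 such fits for 9 genes, among them Cnppd1 (without acute 7 d replicate 2), Trem2 (acute 7 d replicate 3), Bcat1 (chronic 14 d replicate 4), Atp6v0d2 (chronic 14 d replicates 3 and 4), Ecm1 (chronic 14 d replicate 1 and acute 7 d replicate 3), Vipr1 (chronic 14 d replicate 4, acute 7 d replicates 1 and 2), Col4a2 (chronic 14 d replicate 2, acute 7 d replicates 2 and 3) and Mup3 (chronic 14 d replicate 2, acute 7 d replicates 1 to 3). In 5 to 8 of the 8 fits 22 genes were lost, namely Lum, Ngfr, Loxl2, Ifi27l2a, Hmox1, Mmp12, Sox9, Igkc, Mup20, Actn1, Mmp13, Mms19, Per2, Cry1, Timp1, Itgax, Fcgr1, Bub1, Cxcl10, Steap1, Has2 and Mup9. DESeq2 kept 77 of the 80, and lost Actn1, Col4a2 and Lum.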

Other observations

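Lilrb4a, an inhibitory receptor of myeloid cells, was chosen after its values were seen. It had no read in any acute 7 d library and 26.3, 62.4, 0 and 50.3 CPM in chronic 14 d (10.4 ± 7.75 CPM in healthy), at least 145-fold higher against a floor of 3 counts per library. The call ended with depth class as a term (edgeR, adjusted p = 0.141). Its paralog Lilrb4b shares sequence with it, so reads may have been assigned to either copy.

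Gsn, gelsolin, which cuts actin filaments, was named after its values were seen and was higher in chronic 14 d, at 739, 881, 1148 and 1343 CPM in acute 7 d and 2488, 2688, 2443 and 1565 CPM (1.16 ± 0.22, adjusted p = 0.00244 by edgeR), beside 1494 ± 324 CPM in healthy. Its call ended with depth class as a term (0.97, adjusted p = 0.107).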
